A study of Sus scrofa domesticus with 8 samples.

Results

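Cadherins, claudins, connexins and keratins were followed in pig granulosa cells over 144 h of culture. A gene belonged to the set when its symbol in the array annotation named a cadherin (CDH and a number), a protocadherin (PCDH), a claudin (CLDN), a connexin (GJA to GJE), a keratin (KRT and a number), a desmocollin or a desmoglein (DSC, DSG), or was DSP, which encodes desmoplakin. The rule reads symbols and no measured value, but the families were chosen with earlier results of these data known. The rule found 68 of the 10905 genes named on the array. They were 12 cadherins, 6 protocadherins, 3 desmosomal genes, 16 claudin symbols, 9 connexins and 22 keratins. The claudin symbols include CLDND1 and CLDND2, which encode claudin-domain proteins outside the numbered claudins. CDH1, CDH3, CDH5, CLDN1, GJA4, KRT7 and DSG2 were without a named feature and are not analysed here. For the 5 genes with 2 features, the feature with the higher mean was used.

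The proteins of these genes hold neighbouring cells together and frame the cell from within. Classical cadherins span the gap between cells at adherens junctions and bind catenins inside the cell, and the desmosomal cadherins are tied through plakoglobin and desmoplakin to keratin filaments. Claudins form the strands of tight junctions, and connexins form gap junction channels that pass small molecules from cell to cell. Granulosa cells line the ovarian follicle, surround the oocyte and are coupled by gap junctions, in which connexin 43 (GJA1) is the best-known member. Keratins assemble as pairs of a type I and a type II chain, and KRT8 with KRT18 is the usual pair of simple epithelia.

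The cells were taken after slaughter from crossbred Landrace gilts, 43 in all, whose median age was 170 days at a weight of 98 kg. All were grown alike, in Dulbecco's modified Eagle's medium with 2% fetal bovine serum at 37 °C under 5% CO2, and no group received a treatment. RNA was extracted at the start (0 h) and at 48 h, 96 h and 144 h, with 2 arrays per group. Whether both arrays of a group stand for different animals, pools of animals or dishes is not given in the labels. The p-values therefore reflect the spread of these 8 arrays, and that spread may be technical. A gene's level is given as log2 intensity, so a difference of 1 is a 2-fold difference in intensity. Levels of different genes were not compared, because each probe set has its own brightness. The sums of marker lists given below add such levels, so each sum is led by its brightest probe sets.

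The 2 arrays of a time correlated at 0.985 (144 h) to 0.997 (96 h) over all features, and the arrays of 144 h were the least alike. The lower quartile of an array lay between 3.13 and 3.25 and its median between 4.52 and 4.63, and these values serve below as marks of a dim signal. The granulosa marker list had 9 of 15 genes on the array, and their summed linear intensity was 9717 and 10105 on the arrays of 0 h and 1024 and 1344 on those of 144 h. The stromal fibroblast list (COL1A1, COL3A1, DCN, LUM and THY1, 5 of 7 listed) summed to 172 and 194 at 0 h and to 7658 and 9756 at 144 h. Its 5 measured genes were called higher at each later time than at 0 h. Of the 7 oocyte genes measured, 5 were called lower at each later time, and the sum of the 7 was 290 and 339 at 0 h and 92.8 and 99.8 at 144 h. The lists of theca cells (4 of 7 measured), leukocytes (8 of 10) and erythrocytes (3 of 6) summed to 147 to 153, 637 to 794 and 27.9 to 29.6 at 0 h. At 144 h they summed to 97.2 to 131, 679 to 699 and 22.1 to 23.9. CD79A, with means of 9.17 at 0 h and 9.01 at 144 h, makes up most of the leukocyte sum. Between these times LYZ and CD14 were called higher and PTPRC lower among the leukocyte genes. INSL3 of the theca list and HBB of the erythrocyte list were called lower. In RNA from a whole culture, fewer cells of a type and less RNA per cell cannot be told apart.

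Time of culture was called for 22 of the 68 members (32.4%) by an F test over the 4 times, at an adjusted p below 0.05. The same test called 47.5% of all features, a higher share. Most members were dim. Split at the median mean level of all features, 16 members lay above it and 11 of those were called (68.8%), against 71.3% of all features above it. The other 52 lay below, and 11 of those were called (21.2%), against 23.8% of all features there. At each level the members' share was close to that of the array.

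**Figure D1:**
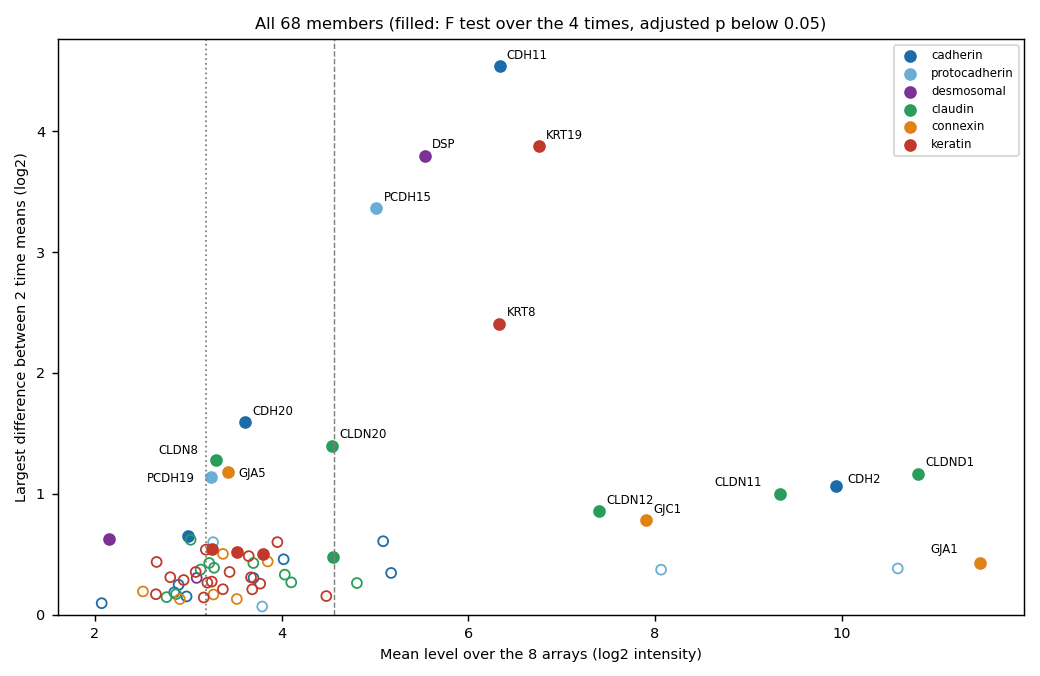
Each of the 68 members by its mean level over the 8 arrays (x axis, log2 intensity) and its largest difference between the means of 2 times (y axis, log2). Filled points were called by the F test over the 4 times, colours mark the family, and the dotted and dashed lines are the mean lower quartile and the mean median of the arrays. CDH11, KRT19, DSP and PCDH15 stand highest, with differences of 4.54, 3.88, 3.80 and 3.36, while most of the open points lie under a level of 4.60.

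From 0 h to 48 h, 7 members were called higher and 8 lower, where 15.2% and 14.8% of all features were called. At 96 h the members gave 7 higher and 14 lower than at 0 h, against 19.0% and 22.3% of all features, and at 144 h they gave 9 higher and 9 lower, against 15.4% and 16.7%. Centring each array on its median turned the 96 h counts into 10 higher and 9 lower. Quantile normalization gave 7 higher and 11 lower, and cyclic loess 8 and 13. The excess of lower members at 96 h thus held in 2 of these 3 scalings and depends on the scaling. Between the later times, 96 h against 48 h gave 5 higher and 6 lower (13.4% and 16.0% of all features, and 9 and 6 members with median centring). The comparison of 144 h with 48 h gave 2 higher and 3 lower (4.32% of all features in each direction), and that of 144 h with 96 h gave 4 and 4 (12.1% and 10.1%). The members' median difference from 0 h was -0.10 at 48 h, -0.07 at 96 h and -0.12 at 144 h, beside -0.04, -0.03 and -0.05 over all features.

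**Figure D2:**
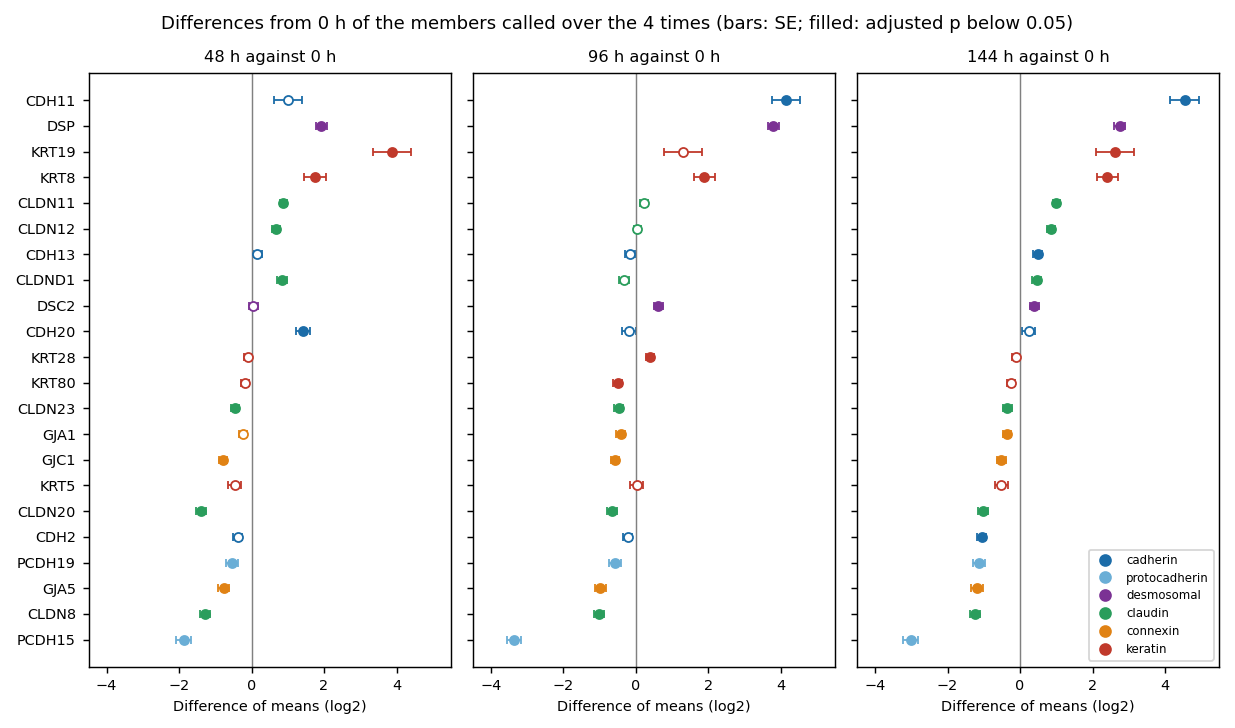
Difference from 0 h at 48 h, 96 h and 144 h (x axes, log2) for the 22 members called over the 4 times, with bars of 1 SE and filled points where the adjusted p was below 0.05. CDH11, DSP, KRT8 and KRT19 lie to the right at 144 h, and CDH2, CLDN8, CLDN20, GJA5, PCDH15 and PCDH19 lie left of -1.

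Among the classical cadherins the largest change was in CDH11 (cadherin 11), a cadherin known from mesenchymal cells. Its levels were 3.88 and 3.95 at 0 h, 4.80 and 5.06 at 48 h, 8.05 and 8.05 at 96 h, and 9.18 and 7.72 at 144 h. Every array of 96 h and 144 h lay above every array of 0 h and 48 h, and the 2 arrays of 144 h lay on either side of those of 96 h. CDH11 was higher than at 0 h by 4.14 ± 0.39 (log2, SE) at 96 h (adjusted p = 6.32e-05) and by 4.54 ± 0.39 at 144 h (adjusted p = 5.38e-05). At 48 h it was 1.01 ± 0.39 above 0 h, with an adjusted p of 0.0864. That difference passed the test when either array of 144 h was left out, and the adjusted p over 19 alternatives ran from 0.000469 to 0.268. CDH11 moved beside the stromal fibroblast list, whose sum at 0 h, 48 h, 96 h and 144 h began at 172, 1624, 5077 and 7658, and the part of those cells in the result was not tested.

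CDH2 (N-cadherin), a cadherin of neural and mesenchymal cells that granulosa cells also carry, went the other way at the end of the culture. Its levels were 10.23 and 10.49 at 0 h, 10.01 and 9.94 at 48 h, 10.20 and 10.06 at 96 h, and 9.37 and 9.22 at 144 h. Both arrays of 144 h lay below the other 6. The difference of 144 h from 0 h was -1.06 ± 0.13 (adjusted p = 0.000437), from 48 h -0.68 (adjusted p = 0.0166) and from 96 h -0.83 (adjusted p = 0.00349). The call against 48 h was lost without either 48 h array (adjusted p = 0.107 and 0.0728, with a range over 19 alternatives of 0.00632 to 0.107). At 48 h CDH2 was -0.38 from 0 h with an adjusted p of 0.0615, and at 96 h -0.23 with 0.214. The 48 h difference passed the test in 5 of 19 alternatives, among them cyclic loess (-0.62) and either array of 144 h left out, with an adjusted p of 0.00655 to 0.308.

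CDH20 (cadherin 20), another classical cadherin, was high at 1 time. It measured 3.11 and 3.38 at 0 h, 4.59 and 4.72 at 48 h, 3.04 and 3.08 at 96 h, and 3.19 and 3.77 at 144 h. The 48 h mean reached the array median and the other 6 lay near the lower quartile or a little above it. CDH20 was higher at 48 h than at 0 h by 1.41 ± 0.19 (adjusted p = 0.000865), and it fell by 1.60 from 48 h to 96 h (adjusted p = 0.000596). CDH13 (T-cadherin), which lacks the membrane-spanning and cytoplasmic parts of other cadherins, was dim on the 8 arrays, from 2.68 to 3.47. It was called higher at 144 h than at 0 h (0.49 ± 0.13, adjusted p = 0.0217), and that call was lost without either array of 0 h or without replicate 2 of 144 h (adjusted p 0.00725 to 0.0928 over 18 alternatives).

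The other 8 cadherins were not called over the 4 times. Their levels ran from 1.99 to 5.64, and their largest differences between the means of 2 times from 0.09 to 0.61. CDH22 and CDH24, with means of 5.17 and 5.09, were the cadherins of this group above the array median, while CDH7, CDH12, CDH15, CDH17, CDH19 and CDH23 lay under it at every time.

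Protocadherins are adhesion proteins of the cadherin superfamily that do not bind catenins in the classical way. PCDH15, best known from the tip links of inner ear hair cells, measured 7.08 and 7.08 at 0 h, 5.07 and 5.34 at 48 h, 3.79 and 3.64 at 96 h, and 4.38 and 3.73 at 144 h. The 0 h arrays were the highest, the 48 h arrays came next, and the 4 arrays of 96 h and 144 h lay under the array median. PCDH15 fell by 1.87 ± 0.21 by 48 h (adjusted p = 0.000284), by 3.36 by 96 h (adjusted p = 6.61e-06) and by 3.02 by 144 h (adjusted p = 1.52e-05), always against 0 h on the log2 scale. It fell from 48 h to 96 h as well, by 1.49 (adjusted p = 0.00118). The granulosa and oocyte lists were also lower at the later times, and their part in this change was not tested.

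PCDH19, known from the brain, was dim. It measured 3.80 and 3.83 at 0 h and 2.42 and 2.93 at 144 h, with 3.18 to 3.36 between. It was called lower at 144 h than at 0 h (-1.14 ± 0.17, adjusted p = 0.00116). PCDH7 was not called over the 4 times on the feature with the higher mean (10.38 to 10.88, adjusted p of the F test 0.0772). Its other feature, with 6.91 and 7.39 at 0 h and 8.87 and 8.90 at 96 h, was (adjusted p of the F test 0.000432). Both features were called higher at 96 h than at 0 h, by 0.36 (adjusted p = 0.047) and 1.74. They differ in size, in the F test and at the other times. Against 0 h the second feature was called higher at 48 h (0.90, adjusted p = 0.00494) and 144 h (0.75, adjusted p = 0.0105). The feature used was called at neither time, with differences of 0.002 and -0.02. PCDH17 (mean level 8.07), PCDH9 and PCDH12 were not called over the 4 times.

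**Figure D3:**
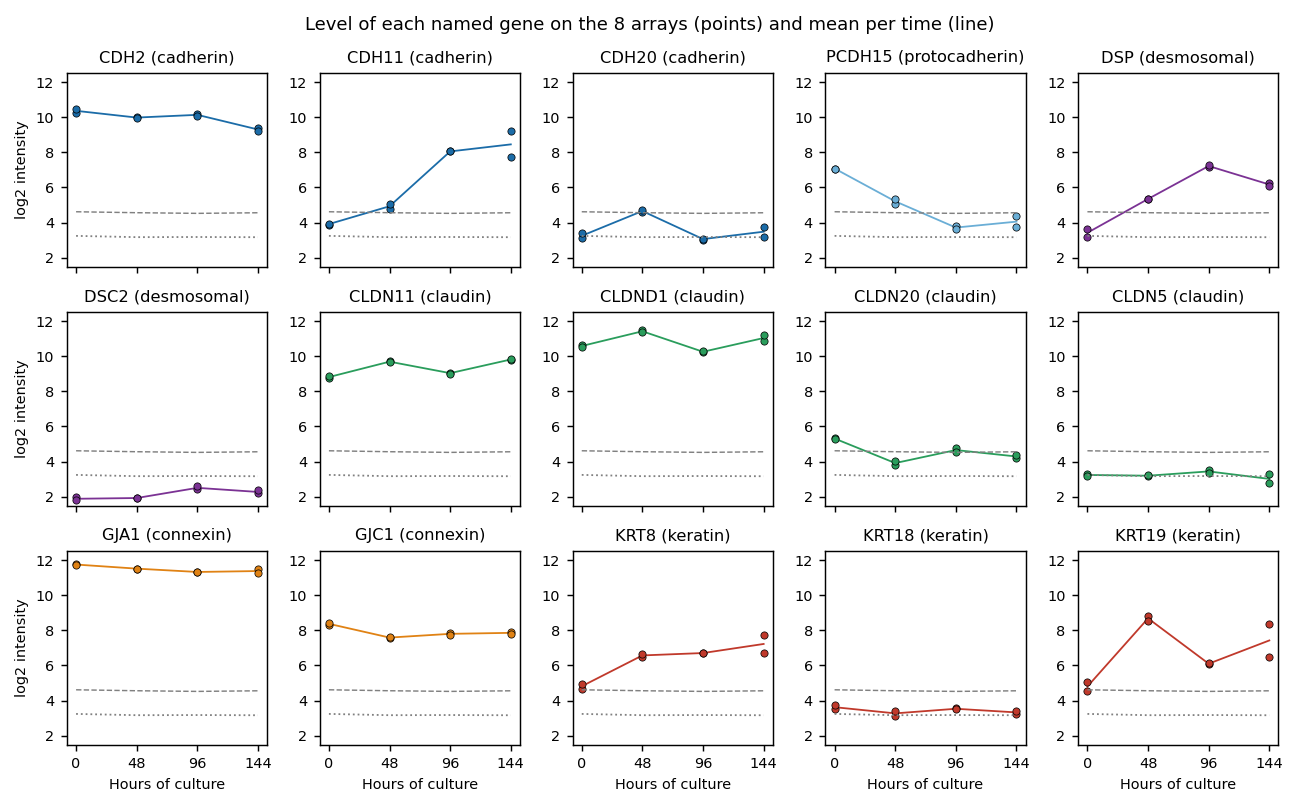
Levels of 15 members on the 8 arrays (points, log2 intensity) against hours of culture, with a line through the mean of each time. The dashed and dotted lines are the median and the lower quartile of all features at each time. CDH11 and DSP cross the median upward and PCDH15 crosses it downward, KRT19 is highest at 48 h, and the points of 144 h lie apart for CDH11 and KRT19.

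At the desmosome, DSP rose steeply. Desmoplakin is the plakin that joins the desmosomal plaque to intermediate filaments. DSP measured 3.20 and 3.64 at 0 h, 5.36 and 5.33 at 48 h, 7.14 and 7.30 at 96 h, and 6.22 and 6.11 at 144 h. The 4 times did not overlap: 0 h was lowest, followed by 48 h, 144 h and 96 h. DSP was higher than at 0 h by 1.92 ± 0.16 at 48 h (adjusted p = 6e-05), by 3.80 at 96 h (adjusted p = 1.06e-06) and by 2.75 at 144 h (adjusted p = 6.53e-06). It then fell by 1.05 from 96 h to 144 h (adjusted p = 0.00272).

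The desmosomal cadherins on the array did not reach the levels that mark a clear signal. DSC2 (desmocollin 2), the desmocollin of most desmosome-bearing tissues, measured 1.97 and 1.80 at 0 h, 1.92 and 1.93 at 48 h, 2.42 and 2.59 at 96 h, and 2.19 and 2.36 at 144 h. All 8 values lay under the lower quartile of their arrays. The test called DSC2 higher at 96 h than at 0 h (0.62 ± 0.12, adjusted p = 0.00402). Its call at 144 h (0.39, adjusted p = 0.0442) was lost in 11 of 18 alternatives (adjusted p 0.0189 to 0.217), among them each array left out except replicate 1 of 144 h. DSC1, a desmocollin of skin and its neighbour in the RefSeq order of pig genes, was not called and lay between 2.85 and 3.33.

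Of the 22 keratins, KRT8 and KRT19 rose, and they were the 2 whose mean reached the array median at some time. KRT8, the type II keratin of simple epithelia, measured 4.67 and 4.96 at 0 h, 6.51 and 6.64 at 48 h, 6.70 and 6.72 at 96 h, and 6.69 and 7.76 at 144 h. Both 0 h arrays were the lowest, the 48 h arrays came next, and the ranges of 96 h and 144 h overlapped above them. KRT8 was higher than at 0 h by 1.75 ± 0.30 at 48 h (adjusted p = 0.00278), by 1.89 at 96 h (adjusted p = 0.00111) and by 2.41 at 144 h (adjusted p = 0.000412). The last value was 2.94 without replicate 1 of 144 h and 1.87 without replicate 2.

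KRT19, a small type I keratin of simple epithelia, peaked at 48 h. It measured 4.52 and 5.09 at 0 h, 8.82 and 8.55 at 48 h, 6.08 and 6.12 at 96 h, and 6.46 and 8.39 at 144 h. The 48 h arrays were the highest, the 0 h arrays the lowest, and the 2 arrays of 144 h were far apart. KRT19 was higher than at 0 h by 3.88 ± 0.52 at 48 h (adjusted p = 0.00081) and by 2.62 at 144 h (adjusted p = 0.00527), and it fell by 2.58 from 48 h to 96 h (adjusted p = 0.00707). Its difference of 1.30 at 96 h had an adjusted p of 0.0802, and the adjusted p over 18 alternatives ran from 0.00106, without either array of 144 h, to 0.307. The value at 144 h was 3.59 without replicate 1 of that time and 1.66 without replicate 2, with an adjusted p of 3.77e-05 to 0.0452 over 19 alternatives.

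KRT18, the usual type I partner of KRT8 and its neighbour in the RefSeq gene order, was dim and was not called. Its levels were 3.52 and 3.74 at 0 h, 3.13 and 3.42 at 48 h, 3.56 and 3.52 at 96 h, and 3.22 and 3.43 at 144 h. The arrays of 48 h and 144 h overlapped and lay under those of 0 h and 96 h by a small distance. At 48 h KRT18 was -0.35 ± 0.15 from 0 h (adjusted p = 0.11), at 96 h -0.09 and at 144 h -0.30. KRT18 has 1 named feature, and a dim feature bounds the level only weakly.

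The keratins KRT8, KRT18 and KRT19 also belong to the marker list of the ovarian surface epithelium, on which 8 of 13 genes were measured. Its 5 genes that are not keratins (EPCAM, LRRN4, PKHD1L1, UPK1B and WT1) summed to 119 to 123 in linear intensity at 0 h, 191 to 192 at 48 h, 185 to 198 at 96 h and 165 to 203 at 144 h. WT1, with means of 6.17, 6.91, 7.19 and 7.01, makes up most of that sum. UPK1B had means of 4.15, 5.29, 4.02 and 4.54 and EPCAM of 2.73, 3.38, 2.86 and 2.85. Like KRT19, both had a called rise from 0 h to 48 h and a called fall from 48 h to 96 h. Other genes of the list did not share this pattern. WT1 and KRT8 were called above 0 h at each later time, without a called change from 48 h to 96 h. LRRN4, with means of 4.13, 3.94, 3.81 and 3.99, was called in no comparison, and neither were PKHD1L1 and KRT18. EPCAM and PKHD1L1 (2.68 to 2.94) lay near or under the lower quartile. The part of such cells in the keratin values was not tested.

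KRT5, KRT28 and KRT80 were called over the 4 times at levels from 2.78 to 4.14. KRT80, which is found in many epithelia, was lower at 96 h than at 0 h (-0.50, adjusted p = 0.0101), a call lost without replicate 1 of 0 h or replicate 2 of 96 h (adjusted p 0.00841 to 0.0825 over 17 alternatives). KRT28, a keratin of the hair root sheath, was higher at 96 h (0.40, adjusted p = 0.02), which was lost without any single array of 0 h or 96 h (0.00752 to 0.157). KRT5, the type II keratin of basal epithelial cells, measured 2.78 to 3.63 and was not called in any of the 6 comparisons, though 4 of 17 alternatives called it lower at 144 h than at 96 h. The remaining 17 keratins, KRT18 among them, lay between 2.38 and 4.65, under the array median at every time. Many of these are keratins of skin and hair, such as KRT1, KRT2, KRT31 and KRT35.

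Some claudins rose and others fell. At 48 h, 3 of 16 were called higher than at 0 h and 3 lower, and so were 3 and 3 at 144 h. These are shares near those over all features, which were 15.2% and 14.8% at 48 h and 15.4% and 16.7% at 144 h. At 96 h 6 were called lower and 0 higher, beside 22.3% and 19.0% of all features. Median centring gave 3 lower and 2 higher, quantile normalization 3 and 1, and cyclic loess 4 and 1. The claudin counts at 96 h thus depend on the scaling. CLDN11 (claudin 11), the claudin of myelin and of Sertoli cell tight junctions, measured 8.77 and 8.85 at 0 h, 9.72 and 9.65 at 48 h, 9.06 and 9.01 at 96 h, and 9.77 and 9.85 at 144 h. The arrays of 48 h and 144 h lay above those of 0 h and 96 h without overlap. CLDN11 was higher than at 0 h by 0.88 ± 0.11 at 48 h (adjusted p = 0.000479) and by 1.00 at 144 h (adjusted p = 0.000181), while at 96 h the difference was 0.22 (adjusted p = 0.135). It fell by 0.65 from 48 h to 96 h (adjusted p = 0.00261) and rose by 0.78 from 96 h to 144 h (adjusted p = 0.00183).

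CLDN12 and CLDND1 were likewise higher on the arrays of 48 h and 144 h than on those of 0 h and 96 h. CLDN12, a claudin without the usual carboxy-terminal binding motif for scaffold proteins, measured 6.96 and 7.05 at 0 h, 7.65 and 7.71 at 48 h, 7.06 and 7.03 at 96 h, and 7.85 and 7.87 at 144 h. It was higher than at 0 h by 0.68 ± 0.10 at 48 h (adjusted p = 0.00174) and by 0.86 at 144 h (adjusted p = 0.000386). CLDND1, a membrane protein with a claudin-like fold, measured 10.62 and 10.53 at 0 h, 11.47 and 11.37 at 48 h, 10.22 and 10.28 at 96 h, and 10.87 and 11.20 at 144 h. Its 96 h arrays were the lowest and its 48 h arrays the highest. CLDND1 rose by 0.84 ± 0.13 from 0 h to 48 h (adjusted p = 0.00215), fell by 1.17 from 48 h to 96 h (adjusted p = 0.000508) and rose by 0.78 from 96 h to 144 h (adjusted p = 0.005, or 0.0531 without replicate 1 of 96 h, and 0.00139 to 0.0531 over 18 alternatives). Its call at 144 h against 0 h (0.45, adjusted p = 0.0334) was lost in 11 of 19 alternatives, each array left out except replicate 1 of 144 h among them, with an adjusted p of 0.00631 to 0.285.

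CLDN20, CLDN8 and CLDN23 were lower than at 0 h at all 3 later times. CLDN20, a little-studied claudin, measured 5.33 and 5.30 at 0 h, 3.79 and 4.04 at 48 h, 4.78 and 4.53 at 96 h, and 4.21 and 4.37 at 144 h. The 0 h arrays were the highest and the 48 h arrays the lowest. CLDN20 fell by 1.40 ± 0.14 by 48 h (adjusted p = 0.000171), by 0.66 by 96 h (adjusted p = 0.00572, or 0.0597 without replicate 2 of 96 h, the highest over 18 alternatives, of which the lowest was 0.00366) and by 1.02 by 144 h (adjusted p = 0.000751). CLDN8, a barrier claudin of the kidney tubule, measured 4.08 and 4.28 at 0 h and 2.74 to 3.22 on the other 6 arrays, which reach the lower quartile or less. At 144 h it was -1.24 ± 0.14 from 0 h (adjusted p = 0.000259). CLDN23 measured 4.88 and 4.85 at 0 h and 4.31 to 4.53 later, and its call at 144 h (-0.35, adjusted p = 0.0492) was lost in 13 of 19 alternatives, with an adjusted p of 0.0425 to 0.246. Leaving out an array of 0 h or 144 h ended it, and so did leaving out one of 96 h. Its call at 48 h was lost as well with cyclic loess, and without either array of 0 h or replicate 2 of 48 h. The call at 96 h was lost without replicate 1 of 0 h or either array of 96 h.

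CLDN5, the claudin of endothelial tight junctions, lay at the lower quartile: 3.29 and 3.19 at 0 h, 3.15 and 3.24 at 48 h, 3.52 and 3.37 at 96 h, and 2.75 and 3.27 at 144 h. It was called at no time, with differences from 0 h of -0.04, 0.20 and -0.22 and an SE of 0.17. Without replicate 2 of 144 h the last value was -0.48 and passed the test (adjusted p = 0.0215, with 0.0215 to 0.873 over 18 alternatives), as did the difference from 96 h (-0.69, adjusted p = 0.00824, with 0.00824 to 0.43 over 17). The 6 endothelial genes measured, CLDN5 among them, summed to 84.4 to 91.5 at 0 h and 93.2 to 107 at 144 h. They did not move together: at 144 h PECAM1 was called higher than at 0 h (1.14), and FLT1 (-0.95) and KDR (-0.66) lower. The other 3 were not called. Of the 10 claudins that were not called over the 4 times, 9 lay under the array median at every time, and CLDN4, an epithelial barrier claudin, had a mean of 4.81.

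Of the 9 connexins, 3 were called over the 4 times, beside 47.5% of all features, and each of the 3 was lower at 96 h and 144 h than at 0 h. GJA1 (connexin 43) measured 11.75 and 11.74 at 0 h, 11.51 and 11.52 at 48 h, 11.34 and 11.31 at 96 h, and 11.47 and 11.28 at 144 h. The 0 h arrays lay above the other 6, by a small distance. GJA1 fell by 0.42 ± 0.11 by 96 h (adjusted p = 0.0161) and by 0.37 by 144 h (adjusted p = 0.0359), and at 48 h the difference was -0.23 (adjusted p = 0.162). With cyclic loess the 48 h difference was -0.53 and was called (adjusted p = 0.00555, with 0.00555 to 0.344 over 19 alternatives). The call at 96 h was lost in 5 of 18 alternatives (adjusted p 0.0018 to 0.101) and that at 144 h in 10 of 19 (0.00241 to 0.135), among them median centring at both times. Leaving out an array of 0 h or 96 h ended the first call, and leaving out any array except replicate 1 of 144 h ended the second.

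GJC1 (connexin 45), which forms channels of low conductance, measured 8.32 and 8.42 at 0 h, 7.57 and 7.60 at 48 h, 7.86 and 7.74 at 96 h, and 7.92 and 7.79 at 144 h. The 0 h arrays were the highest and the 48 h arrays the lowest, and the ranges of 96 h and 144 h overlapped. GJC1 fell by 0.78 ± 0.11 by 48 h (adjusted p = 0.00122), by 0.57 by 96 h (adjusted p = 0.00394) and by 0.51 by 144 h (adjusted p = 0.00892). The last call was lost without replicate 2 of 0 h, at an adjusted p of 0.0603, with a range over 19 alternatives of 0.00233 to 0.0603. GJC1 has 2 features with identical values, which were counted once.

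GJA5 (connexin 40), a connexin of arterial endothelium and atrial muscle, measured 4.00 and 4.31 at 0 h, 3.37 and 3.40 at 48 h, 3.17 and 3.18 at 96 h, and 3.16 and 2.78 at 144 h. Every later array lay below both 0 h arrays. It was -0.77 ± 0.16 from 0 h at 48 h (adjusted p = 0.00728, or 0.0567 without replicate 2 of 0 h, the highest over 19 alternatives, of which the lowest was 0.00235) and -1.18 at 144 h (adjusted p = 0.000678). GJD2 (connexin 36), the connexin of neurons, was called lower at 48 h (-0.48, adjusted p = 0.0376) and at 96 h, but not by the F test. With median centring or quantile normalization 2 connexins, GJA5 and GJC1, were called lower at 48 h, and GJD2 was not. The other connexins, GJA10, GJB1, GJB5, GJB7 and GJD4, were not called over the 4 times, and the 6 without a call, GJD2 included, lay between 2.38 and 4.32.

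In all, 46 members were not called over the 4 times. Their largest differences between the means of 2 times ran from 0.07 to 0.62, and 41 of them lay under the array median at every time. Of the 46, 7 were called in a pair of times. At this signal the arrays bound a change of such genes only weakly, since a dim feature can understate one.

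The proteins that work with these members were followed through lists of genes chosen by function. Apart from CTNNB1, JUP and OCLN, the partners named were taken from the called genes of each list. They were among those with the largest change at 144 h from 0 h, and not every such gene is named. The sizes and p-values of the named partners therefore do not stand for the list. The adherens junction list had 15 of its 24 genes on the array, and at 144 h 7 of them were called above 0 h and 3 below. Over all features 15.4% were called higher and 16.7% lower at 144 h, which stands beside the count of each list below. Of the 6642 named genes whose mean reached the array median at a time, 1985 were called higher and 1633 lower. Of the 15 adherens junction genes 12 reached it, and of the 13 tight junction partners 10. Whether a list differs from these shares was not tested. VCL (vinculin), which links the junction to actin, was higher by 1.78 ± 0.11 (adjusted p = 7.43e-06). NECTIN3, a nectin that adheres beside cadherins, was higher by 1.64 ± 0.14 (adjusted p = 4.49e-05). PLEKHA7, a protein of the epithelial adherens belt, was lower, at -2.01 ± 0.16 (adjusted p = 3.38e-05). CTNNB1 (β-catenin), the direct partner of classical cadherins, rose from 9.75 and 9.81 at 0 h to 10.52 and 10.34 at 144 h (adjusted p = 0.00256). CTNNAL1, related to α-catenin, had an order of times like that of KRT19, with 8.85 and 8.92 at 48 h against 6.35 and 6.65 at 0 h.

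Of the 7 desmosome and plakin partners measured, 1 was higher and 1 lower at 144 h. MACF1, a plakin that crosslinks actin and microtubules, was -1.37 ± 0.10 from 0 h (adjusted p = 2.91e-05), and PERP, a membrane protein of desmosomes, was higher by 0.67 ± 0.15 (adjusted p = 0.0105, or 0.065 without replicate 1 of 0 h, the highest over 19 alternatives, of which the lowest was 0.00203). JUP (plakoglobin), which binds desmosomal cadherins, was not called over the 4 times and measured 9.28 to 9.96. The other intermediate filament and lamin genes gave 1 higher and 4 lower of 13. LMNA (lamin A/C), of the nuclear lamina, was higher by 0.97 ± 0.11 (adjusted p = 0.000238). LMNB1 was lower, at -0.76 (adjusted p = 0.00122), on its feature with the higher mean. Its other, dimmer feature was called in no comparison, with differences from 0 h of 0.26 at 96 h and -0.28 at 144 h. BFSP1, at -1.17 (adjusted p = 0.00293), and NEFL, at -0.94 (adjusted p = 0.00869), were also called lower. NEFL was dim, with means of 3.43 at 0 h and 2.49 at 144 h.

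Around the claudins, 5 of 13 tight junction partners were called higher and 2 lower at 144 h. TMEM47, a claudin-related membrane protein, measured 8.03 and 8.07 at 0 h and 10.27 and 10.56 at 144 h, a difference of 2.36 ± 0.12 (adjusted p = 4.17e-06). F11R (junctional adhesion molecule A) was higher by 2.30 ± 0.15 (adjusted p = 1.16e-05) and CXADR, a junctional receptor, by 1.64 ± 0.12 (adjusted p = 2.43e-05). OCLN (occludin) lay under the lower quartile, at 2.59 to 2.85, and was not called. Of the 6 gap junction partners measured, 2 were called, both higher. CAV1 (caveolin 1), the coat protein of caveolae that binds connexin 43, rose from 4.11 and 4.08 at 0 h to 8.80 and 9.01 at 144 h, and TJP1 (ZO-1), a scaffold shared by tight and gap junctions, rose by 0.60 ± 0.13 (adjusted p = 0.00695).

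**Figure D4:**
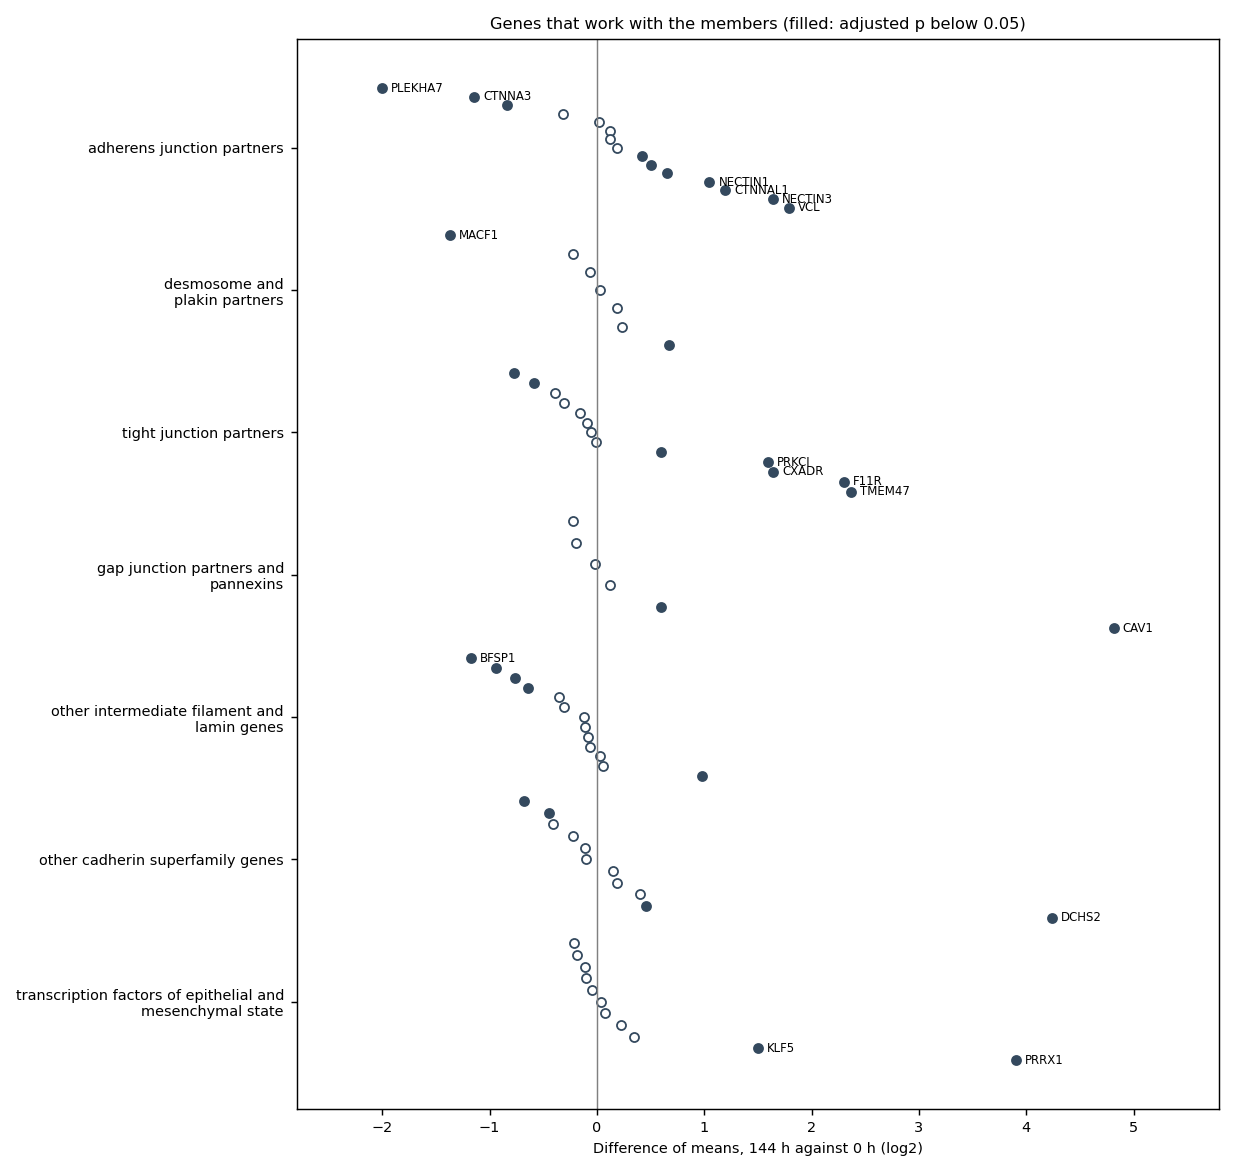
Differences of 144 h from 0 h (x axis, log2) for the measured genes of 7 lists of genes that work with the members, ordered by value within each list and filled where the adjusted p was below 0.05. CAV1 at 4.81, DCHS2 at 4.24 and PRRX1 at 3.90 lie farthest to the right, and PLEKHA7 at -2.01 lies farthest to the left; TJP1 stands in 2 lists.

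Of 11 other genes of the cadherin superfamily, 2 were called higher (DCHS2 and CELSR3) and 2 lower (CLSTN1 and FAT2) at 144 h. The calls of CELSR3, CLSTN1 and FAT2 were each lost without either array of 0 h, and in 8 of 19, 3 of 19 and 10 of 18 alternatives in all. DCHS2, a large cadherin related to the fly gene dachsous, measured 3.08 and 3.07 at 0 h, 6.92 and 6.63 at 48 h, 7.24 and 7.24 at 96 h, and 7.33 and 7.30 at 144 h. All 6 later arrays lay far above those of 0 h, which were under the lower quartile. Of 11 transcription factors of epithelial and mesenchymal state, PRRX1 and KLF5 were the 2 called at 144 h, both higher. PRRX1, a mesenchymal homeobox factor, measured 5.10 and 5.39 at 0 h and 9.86 and 8.43 at 144 h, and its 144 h arrays were spread in the same order as those of CDH11. KLF5, a factor of epithelial cells, measured 4.51 and 4.47 at 0 h, a mean of 7.06 at 48 h, 5.17 and 5.14 at 96 h, and 5.51 and 6.47 at 144 h, high at 48 h as KRT19 was.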

How the data were processed

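Total RNA of 8 samples was measured on Affymetrix whole-transcript arrays. The deposited values are log2 intensities on which the authors had run RMA (robust multi-array average), according to the submitters' processing notes. Its software, its settings and the genome build are not stated there. RMA sets the probe values of all arrays to 1 distribution before they are summarized per feature. It thus hides a change common to most transcripts. The deposited feature values still differ a little between arrays, with medians of 4.52 to 4.63. All 27558 features were fitted with limma 3.58.1 in R 4.3.3, with 1 mean per time, 4 residual degrees of freedom, and p-values adjusted by Benjamini and Hochberg over all features. Differences are called at an adjusted p below 0.05 and given with the SE of the fit. Every difference from 0 h shares the same 2 arrays of 0 h.

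Genes were named from GEO's platform annotation, using features with 1 symbol (11735) or 1 repeated symbol (239); 2 features that hold both KRT31 and KRT34 were left out of the members. Of 68 members, 63 were found in the RefSeq table of pig genes (Sscrofa11.1) by gene identifier. Values on every array are given for members called over the 4 times that reach the array median and differ by at least 1 (log2), and for a list of well-known junction and keratin genes. CDH13, PCDH19, PCDH7, CLDN8, CLDN12, CLDN23, GJA5, GJD2, KRT5, KRT28 and KRT80 were named after their values were seen. Members, marker lists and partner lists were chosen with earlier results of these data known. The fit was tested on simulated data. Alternatives changed the scaling, the filter, the threshold, the arrays fitted and each array in turn. The labels name no batch, and one in step with time cannot be told apart from it.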

Additional observations from a re-analysis of the deposited data

How the results depend on the processing

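Over 3448 recomputed differences of single genes, 3264 kept their side of the threshold, 136 lost the call, 48 gained it and 0 called differences reversed. Differences that were not called could change sign, as that of TJP1 at 48 h against 0 h did (-0.07 to 0.24). The number of members called was 15 at 48 h, 21 at 96 h and 18 at 144 h against 0 h, 11 for 96 h against 48 h, 5 for 144 h against 48 h, 8 for 144 h against 96 h and 22 over the 4 times. Leaving out dim features gave 12 for 96 h against 0 h and 5 for 144 h against 96 h. Fitting only the arrays compared gave 19 for 96 h against 48 h and 2 for 144 h against 48 h. At an adjusted p below 0.01, 9 remained for 96 h against 0 h and 2 for 144 h against 48 h. A difference of at least 2-fold left 7, 5 and 11 against 0 h at 48 h, 96 h and 144 h, and 6, 3 and 1 for the later comparisons in the order above. Leaving out 1 array gave 11 to 21, 8 to 26 and 12 to 21 against 0 h, 9 to 19, 1 to 9 and 4 to 17 for the later comparisons, and 15 to 31 over the 4 times. For 96 h against 0 h the arrays that moved the count by over 1.5 times were the 2 of 0 h (11 and 12) and the 2 of 96 h (10 and 8). For 96 h against 48 h they were the 2 of 144 h (19 each), for 144 h against 48 h the 2 of 48 h (3 and 1) and the 2 of 144 h (9 and 8), and for 144 h against 96 h the 2 of 96 h (4 and 5) and replicate 2 of 144 h (17). The cause of these changes was not tested.

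With the replicate number as a block, the counts were 15, 19 and 16 against 0 h, 11, 5 and 8 for the later comparisons, and 19 over the 4 times. The differences between replicates 1 and 2 correlated at -0.04 to 0.19 between times, highest between 48 h and 144 h. These values cannot tell whether arrays with the same replicate number share animals or a culture, which the labels do not give. With 2 arrays per time, the spread of each gene rests largely on the pooled estimate, and a dim signal limits what can be seen of the 52 members below the median level, 14 of which lay below the lower quartile at every time.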
